A study of Mus musculus with 6 samples.

Results

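The genes described here are 9 genes of protein quality control, vesicle trafficking and the actin cytoskeleton whose human counterparts are mutated in amyotrophic lateral sclerosis or related motor neuron disease: Sod1, Vcp, Ubqln2, Sqstm1, Tbk1, Optn, Fig4, Vapb and Pfn1. They were taken by name, and each was read by the brightest probeset that carried its symbol and no other. This found 8 of the 9 genes, out of 22180 genes with such a probeset, and all 8 were bright enough to be among the 16635 genes tested. Optn, the optineurin gene, had 0 probesets under that rule and was not analysed here.

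Whole-brain RNA was measured on Affymetrix Mouse Gene 2.0 ST arrays, 1 array per sample. The 3 HuR KO samples came from Thy1Cre-ERT2-EYFPHuRf/f mice, in which both alleles of Elavl1, the gene of the RNA-binding protein HuR, are floxed. The 3 HuR WT samples came from Thy1Cre-ERT2-EYFPHuRf/+ mice, which carry 1 floxed allele, so the controls may themselves lack 1 copy in Cre-expressing neurons. Mice of both genotypes carried the same tamoxifen-inducible Cre with a yellow fluorescent reporter under the Thy1 promoter, which is active in subsets of neurons, so other cells keep the gene. Tamoxifen was given to both genotypes when they were 10 and 11 weeks old, and the brain was collected at 91 days. Motor neuron disease is named in the series title, and the comparison asks whether transcripts of these disease genes differed in whole brain after the deletion.

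Misfolded or surplus proteins are cleared by the proteasome and by autophagy, and both routes use ubiquitin tags. Vcp pulls tagged proteins out of complexes and membranes, Ubqln2 carries them to the proteasome, and the receptors Sqstm1 and optineurin load them into autophagosomes, helped by the kinase Tbk1. Fig4 and Vapb act on the membranes that these routes and axonal transport depend on, and Pfn1 supplies actin for axon growth. Motor neurons, with their long axons, are the cells that degenerate when the human genes are mutated. HuR binds AU-rich stretches of messenger RNA and is known mainly for stabilising its targets.

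Upstream sequence is shown for 4 of the 8 genes: Sod1 and Pfn1, whose levels over the 6 arrays were the most alike of any pair of these genes, Sqstm1, which ran the other way in the arrays numbered 3, and Tbk1, the 1 gene with an E-box. Each window holds 250 bases before and 50 bases after a transcription start, from RefSeq on the build given, 5′ to 3′ on the gene's own strand. Capitals mark the 6 motifs searched on both strands.
Sod1 (GRCm38.p6 chr16:90220512-90220811, + strand): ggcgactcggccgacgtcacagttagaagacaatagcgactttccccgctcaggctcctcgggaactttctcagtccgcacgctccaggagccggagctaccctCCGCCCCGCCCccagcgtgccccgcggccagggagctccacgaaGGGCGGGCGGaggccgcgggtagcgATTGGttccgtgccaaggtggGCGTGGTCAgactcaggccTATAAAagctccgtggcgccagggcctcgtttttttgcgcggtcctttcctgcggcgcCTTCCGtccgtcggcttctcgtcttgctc
Pfn1 (GRCm38.p6 chr11:70654601-70654900, - strand): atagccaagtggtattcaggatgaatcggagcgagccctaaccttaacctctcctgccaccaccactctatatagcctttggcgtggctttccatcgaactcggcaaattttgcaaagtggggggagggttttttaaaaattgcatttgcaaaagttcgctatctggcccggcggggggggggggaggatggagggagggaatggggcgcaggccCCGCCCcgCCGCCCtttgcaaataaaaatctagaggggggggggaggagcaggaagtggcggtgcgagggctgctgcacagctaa
Sqstm1 (GRCm38.p6 chr11:50210771-50211070, - strand): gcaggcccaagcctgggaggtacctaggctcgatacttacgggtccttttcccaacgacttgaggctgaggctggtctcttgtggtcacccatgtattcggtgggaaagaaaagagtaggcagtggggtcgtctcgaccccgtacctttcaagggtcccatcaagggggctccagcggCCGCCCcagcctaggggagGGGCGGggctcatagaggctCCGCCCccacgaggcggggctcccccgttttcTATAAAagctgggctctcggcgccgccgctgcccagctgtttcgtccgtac
Tbk1 (GRCm38.p6 chr10:121586745-121587044, - strand): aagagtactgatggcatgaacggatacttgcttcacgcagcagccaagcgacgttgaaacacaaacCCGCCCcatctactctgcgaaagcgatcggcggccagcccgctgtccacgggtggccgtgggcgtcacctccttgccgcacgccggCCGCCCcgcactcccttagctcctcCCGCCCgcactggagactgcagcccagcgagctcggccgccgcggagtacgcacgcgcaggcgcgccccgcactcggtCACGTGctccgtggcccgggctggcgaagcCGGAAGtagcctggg

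The RefSeq table held a window for 7 of the 8 genes, all except Ubqln2. The GC box GGGCGG lay in 6 of the 7 windows, against 35.7% of all 32851 windows of the same length. The ETS core CGGAAG lay in 4 of 7 (16.9% of all windows), the TATA box TATAAA in 3 of 7 (13.6%) and the CCAAT box in 3 of 7 (37.4%). The letters TATAAA lay at different places: shortly before the start in Sod1, at the far upstream end of the window in Vcp, and across the start in Sqstm1. A match was counted wherever it lay in the window. The antioxidant response element core TGACNNNGC lay in 2 of 7, Sod1 and Vcp (12.4%). The E-box CACGTG, the core of the site bound by the lysosome and autophagy regulator TFEB, lay in Tbk1 alone (7.15%). GC boxes overlap each other in the Sod1 window. Sod1 and Pfn1 had the GC box in common and differed in the rest: Sod1 also had a TATA box, a CCAAT box, an antioxidant response element core and an ETS core, and Pfn1 had none of these in its window. These matches describe letters and not binding.

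No difference between HuR KO and HuR WT brain was detected in any of the 8 genes. By limma's moderated test over all 16635 genes, 0 of the 8 passed a Benjamini-Hochberg adjusted p of 0.05, and 0 had an unadjusted p under 0.05. Over all genes, 0 (0%) passed after adjustment, while an unadjusted p under 0.05 was seen in 1.7%. The HuR KO and HuR WT arrays overlapped in each of the 8, where 5.7% of all genes had no overlap (3.14% with every HuR KO array higher and 2.55% with every HuR KO array lower). The differences ran from -0.075 for Vcp to 0.13 for Pfn1 on the log2 scale, and each of the 8 had an adjusted p of 1. Values were above 0 in 6 of 8 genes, against 54.8% of all genes, and the median over the 8 was 0.033, against 0.013 over all genes.

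The intervals say how large a difference could have gone unseen. The 95% confidence intervals of the 8 fold changes, each from the brightest probeset, all lay between 0.761-fold and 1.40-fold, both bounds set by Ubqln2. With same-numbered arrays treated as pairs, the bounds were 0.809-fold, for Vcp, and 1.29-fold, for Pfn1. This pairing was taken from the data and not from a label, and it is specific for number 3 alone. These narrower bounds, and all p values with pairs given below, depend on it. In whole brain, fewer cells of a type and less RNA per cell cannot be told apart, and motor neurons are a small share of the cells. Neuronal marker genes were bright in both groups, with Rbfox3 at 8.35 to 8.76 in HuR KO and 8.23 to 8.86 in HuR WT on the log2 scale. Chat, the acetylcholine-making enzyme of motor and other cholinergic neurons, was at 4.21 to 4.89 in HuR KO and 4.16 to 4.81 in HuR WT. Elavl1 itself was at 8.22, 8.17 and 8.27 in HuR KO 1, 2 and 3, against 8.27, 8.01 and 8.53 in HuR WT 1, 2 and 3. Its groups overlapped. The position of its probeset relative to the floxed exons is not known here, so it does not check the labels.

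**Figure D1:**
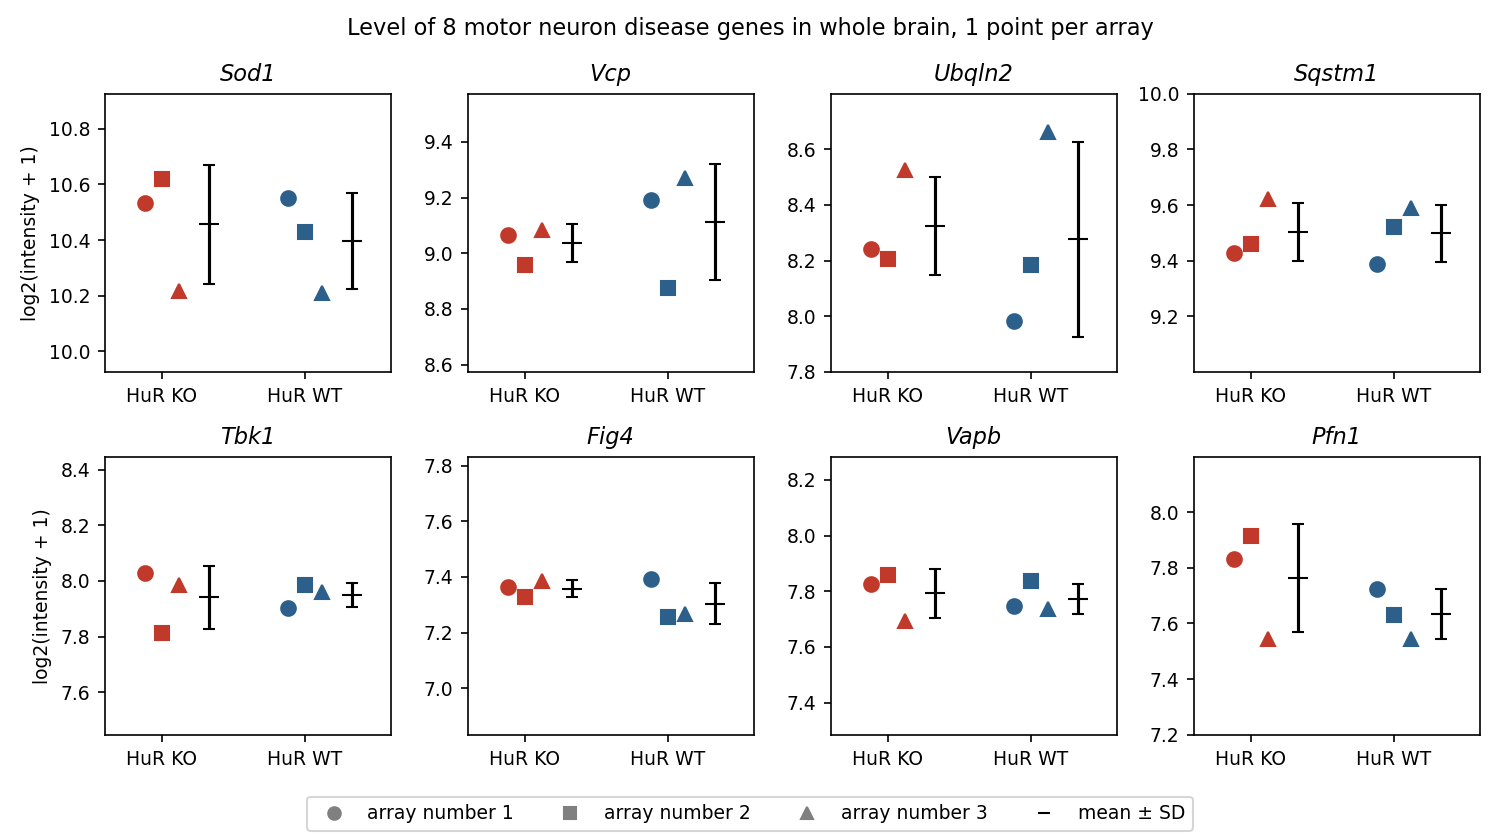
Level of the 8 genes on each array, as log2(intensity + 1) after quantile normalization, with HuR KO left and HuR WT right in each panel. Symbols give the array number and bars the mean ± SD of 3 arrays; every panel spans the same height on the log2 scale, and the groups overlap in every panel.

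Levels below are log2(intensity + 1) after normalization, in the order of arrays 1, 2 and 3. Sod1, the copper-zinc enzyme that breaks down superoxide, was at 10.53, 10.62 and 10.22 in HuR KO, against 10.55, 10.43 and 10.21 in HuR WT. In deposited intensity this is 1419 ± 208 in HuR KO and 1358 ± 175 in HuR WT (SD, n = 3 each). The arrays numbered 3 were the lowest of both groups, and they differed from each other by 0.0051. The log2 fold change was 0.059 with a standard error of 0.15 (limma unadjusted p = 0.701), and its interval ran from 0.819-fold to 1.32-fold.

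Vcp, the ATPase also called p97 that extracts ubiquitinated proteins, was at 9.07, 8.96 and 9.09 in HuR KO, against 9.19, 8.88 and 9.27 in HuR WT. The 3 HuR KO arrays lay inside the range of the HuR WT arrays, and the SD was 0.068 in HuR KO and 0.21 in HuR WT. The log2 fold change was -0.075 ± 0.13 (SE, limma unadjusted p = 0.586). Vcp was the 1 gene with another probeset, a dimmer one, which read 5.95, 5.78 and 5.72 in HuR KO, against 6.27, 6.46 and 5.69 in HuR WT. There HuR KO arrays 1 and 2 lay below HuR WT arrays 1 and 2, while the arrays numbered 3 were nearly level. In a fit over 17547 probesets with 1 symbol, this dimmer probeset had a log2 fold change of -0.32 ± 0.20 (SE; limma unadjusted p = 0.152, adjusted p = 1; 0.0699 and 0.976 with pairs). Both probesets had values below 0, the dimmer one the larger in size, and neither passed. With the mean over both, the log2 fold change was -0.20.

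Ubqln2, an X-linked gene for a ubiquilin that shuttles ubiquitinated proteins to the proteasome, varied most of the 8 genes from array to array. It was at 8.24, 8.20 and 8.53 in HuR KO, against 7.98, 8.18 and 8.66 in HuR WT. The array numbered 3 was the highest of each group. The range over the 6 arrays was 0.68, while the log2 fold change was 0.048 ± 0.19 (SE, limma unadjusted p = 0.807). By number, HuR KO minus HuR WT was 0.26, 0.021 and -0.14, so the pairs did not share a sign.

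Sqstm1, the autophagy receptor p62 that binds both ubiquitin and the autophagosome, was at 9.43, 9.46 and 9.62 in HuR KO, against 9.39, 9.52 and 9.59 in HuR WT. The group means, 9.50 in each, were the closest of the 8 genes, with a log2 fold change of 0.0040 ± 0.11 (SE, limma unadjusted p = 0.972). Tbk1, the kinase that phosphorylates Sqstm1 and optineurin and also switches on type I interferon signalling, was at 8.03, 7.81 and 7.98 in HuR KO, against 7.90, 7.99 and 7.96 in HuR WT. Its highest and lowest arrays both belonged to HuR KO, and its log2 fold change was -0.0082 ± 0.11 (SE, limma unadjusted p = 0.941). These autophagy genes had the smallest differences of the 8.

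Fig4, a phosphatase in the complex that sets the endosomal lipid phosphatidylinositol 3,5-bisphosphate, was at 7.36, 7.33 and 7.38 in HuR KO, against 7.39, 7.25 and 7.27 in HuR WT. It had the narrowest range of the 8 genes, 0.14 over the 6 arrays, and the narrowest interval, from 0.883-fold to 1.22-fold around a log2 fold change of 0.054 ± 0.10 (SE, limma unadjusted p = 0.607). Vapb, the endoplasmic reticulum protein that tethers other membranes and lipid transfer proteins, was at 7.83, 7.86 and 7.69 in HuR KO, against 7.75, 7.84 and 7.74 in HuR WT. The HuR KO group held both its highest and its lowest array, with a log2 fold change of 0.018 ± 0.10 (SE, limma unadjusted p = 0.865).

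Pfn1, profilin 1, which hands actin monomers to growing filaments, had the largest difference of the 8 genes by their brightest probesets. It was at 7.83, 7.91 and 7.55 in HuR KO, against 7.72, 7.63 and 7.55 in HuR WT, and in deposited intensity at 219 ± 24.1 in HuR KO and 196 ± 14.9 in HuR WT (SD, n = 3 each). HuR KO arrays 1 and 2 lay above every HuR WT array, and the arrays numbered 3 were both at 7.55. The log2 fold change was 0.13 ± 0.13 (SE), a fold of 1.10 with an interval from 0.888 to 1.35 (limma unadjusted p = 0.343; 0.216 with pairs). Differences by number were 0.11, 0.29 and 0.00051. Of all genes tested, 73.7% had a smaller difference in size than Pfn1. Without HuR KO 3 its log2 fold change was 0.24, without HuR WT 3 it was 0.087, and without both it was 0.19.

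**Figure D2:**
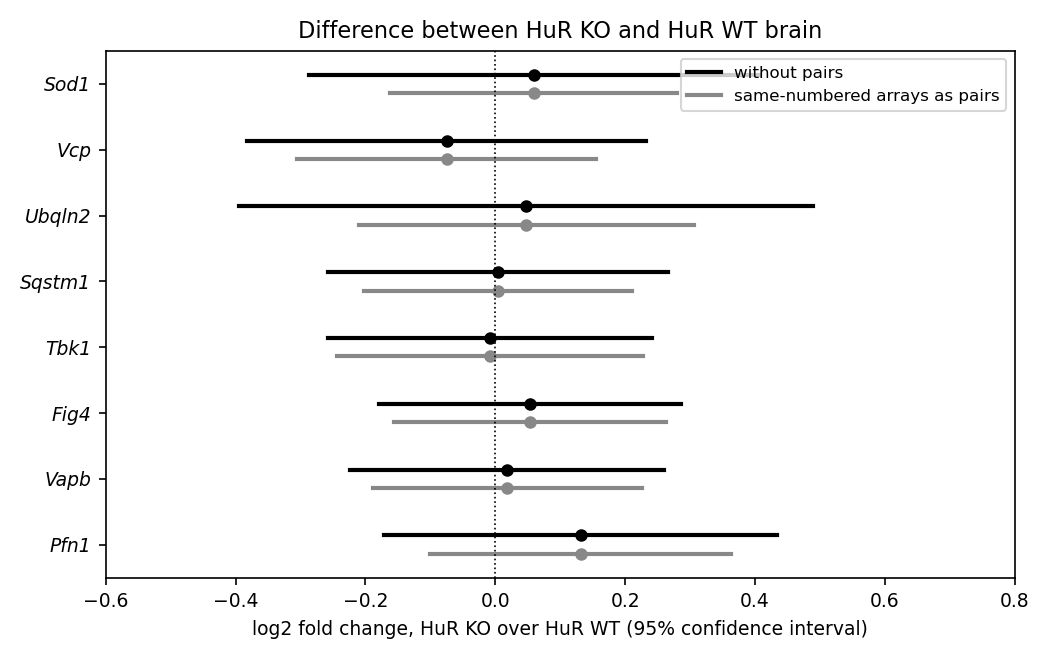
Log2 fold change of HuR KO over HuR WT for the 8 genes, with 95% confidence intervals from limma without pairs (black) and with same-numbered arrays as pairs (grey). Every interval includes 0 in both fits, and Ubqln2 has the widest interval without pairs, from -0.39 to 0.49.

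Several of the genes differed more between array numbers than between genotypes. The arrays numbered 3 stood apart in both groups: Xist, which coats and silences 1 X chromosome of female cells, was at 7.68 in HuR KO 3 and 7.69 in HuR WT 3, against 2.52 to 2.79 in the other 4. Both sexes were used, and the sex of each sample is not in the labels. Both arrays numbered 3 lay outside the range of the other 4 arrays for 5 of the 8 genes, and for 44% of all genes tested. Ubqln2 and Sqstm1 lay above that range, and Sod1, Pfn1 and Vapb below it.

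In size, HuR KO 3 exceeded the mean of HuR KO 1 and 2 by 0.30 for Ubqln2, and HuR WT 3 exceeded the mean of HuR WT 1 and 2 by 0.58. For Sod1 the same differences were -0.36 in HuR KO and -0.28 in HuR WT, and for Pfn1 they were -0.33 in HuR KO and -0.13 in HuR WT. For Sqstm1 they were 0.18 in HuR KO and 0.13 in HuR WT, and for Vapb -0.15 in HuR KO and -0.054 in HuR WT. For Tbk1, Vcp and Fig4 the arrays numbered 3 did not both leave that range on 1 side, and Fig4 had opposite signs, 0.038 in HuR KO and -0.055 in HuR WT. Among 551 X chromosome genes other than Xist, 22.7% lay above the range and 22.5% below it in both arrays numbered 3, against 23.4% and 20.6% of all genes. The part of sex in these shared differences was not tested. With the Xist level as a covariate, the log2 fold changes of HuR KO over HuR WT were 0.134 for Pfn1 and 0.0422 for Ubqln2, close to the values without it. High Xist was seen in the array numbered 3 of each genotype, so this covariate could hardly move these values. Their closeness therefore says nothing about the part of sex. Without both arrays numbered 3, groups did not overlap in 2 of the 8 genes, Pfn1 and Ubqln2, where 34.8% of all genes had no overlap.

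**Figure D3:**
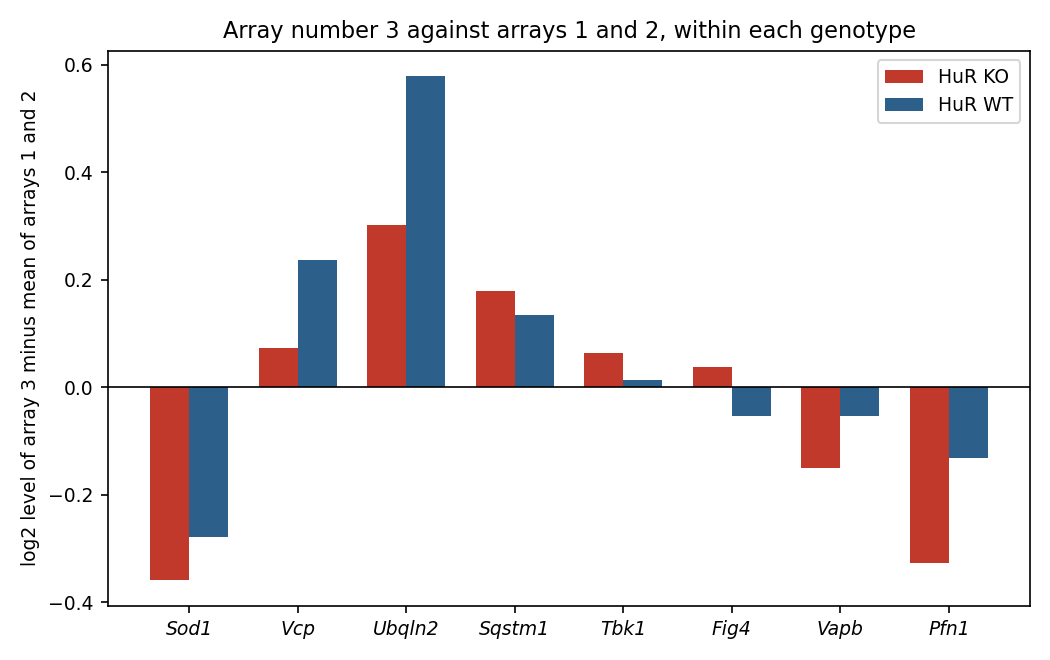
Log2 level of array number 3 minus the mean of arrays 1 and 2, within HuR KO (left bar of each pair) and within HuR WT (right bar), for the 8 genes. Sod1, Vapb and Pfn1 lie below 0 and Vcp, Ubqln2, Sqstm1 and Tbk1 above 0 in both genotypes, with Fig4 split.

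Sod1 and Pfn1 had the most similar profiles among the 8 genes, with a root mean square difference of 0.062 between their mean-centred log2 levels over the 6 arrays, and Sod1 and Ubqln2 the least similar, at 0.37. By the same measure over all genes tested, the profile nearest to Ubqln2 was that of Kcnh5, a potassium channel gene, at 0.012, followed by Cplx2, a complexin of synaptic vesicle release (0.022), and Igsf11 (0.026). The median gene was at 0.26. Kcnh5 read 7.98, 7.96 and 8.28 in HuR KO, against 7.70, 7.91 and 8.41 in HuR WT. The genes nearest to Sod1 were Mindy3, a deubiquitinase (0.011), Mthfd1, an enzyme of folate metabolism (0.018), and Suclg1, a subunit of mitochondrial succinyl-CoA ligase (0.022). Those nearest to Vcp were Frmd4b (0.022), Septin6 (0.037) and the potassium-chloride cotransporter gene Slc12a4 (0.037). These likenesses describe 6 arrays of which the pair numbered 3 stand apart.

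None of the closest relatives of the 8 genes passed the adjusted threshold either. Ubqln1 and Ubqln4, the other ubiquilins measured, had log2 fold changes of 0.022 ± 0.13 and 0.17 ± 0.12 (SE). Vapa was at 0.093 ± 0.15 and Pfn2, the neuronal profilin, at 0.065 ± 0.12. The mitochondrial and extracellular superoxide dismutases Sod2 and Sod3 were at 0.084 ± 0.11 and -0.17 ± 0.17. In the arrays numbered 3, 2 of the 6 relatives went the way of their family member and 4 did not. Both arrays lay above the other 4 for Ubqln1, as for Ubqln2, and below them for Vapa, as for Vapb. They lay above the other 4 for Sod2 and Sod3, while for Sod1 they lay below, and for Ubqln4 and Pfn2 they were not both outside the range on 1 side.

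Genes that work with these proteins were followed in 10 lists with 197 genes, of which 175 were tested. The rest had no probeset with 1 symbol or were too dim. Tested were 7 of 12 ubiquilins and shuttle factors and 15 of 22 other motor neuron disease genes. Of the 175, 0 passed after adjustment, 1 reached a limma unadjusted p below 0.05 (1.7% of all genes) and 106 lay above 0 (54.8% of all genes). Groups did not overlap in 11, where 5.7% of all genes had no overlap. These shares over all genes are the ones to set beside the counts of each list below. List medians ran from -0.016 to 0.041, against 0.013 over all genes.

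Autophagy was covered by receptors, the core machinery and the partners of Tbk1 and optineurin. Among 30 core autophagy genes, 0 passed either threshold and 18 lay above 0 (median 0.031), against 54.8% of all genes. Groups had no overlap in 3, against 5.7% of all genes. Atg14, a subunit of the lipid kinase complex that starts autophagosomes, was at 6.34, 6.48 and 6.30 in HuR KO, against 6.18, 6.02 and 6.29 in HuR WT. Wipi2, which recruits the lipidation machinery, was at 7.91, 7.94 and 7.90 in HuR KO, against 7.71, 7.74 and 7.79 in HuR WT. In both genes the HuR KO arrays lay above all HuR WT arrays, for Atg14 by a narrow margin, with log2 fold changes of 0.21 ± 0.12 and 0.17 ± 0.096 (SE, limma unadjusted p = 0.117 and 0.119). The third without overlap, also by a narrow margin, was the autophagy-starting kinase Ulk2, named for that after its values were seen, at 8.99, 8.86 and 8.86 in HuR KO, against 8.84, 8.86 and 8.81 in HuR WT, with a log2 fold change of 0.069 ± 0.10 (SE, limma unadjusted p = 0.511). Of 15 autophagy receptors and regulators, 9 lay above 0 (median 0.019). Those with the lowest p were the mitophagy receptor Bnip3, at -0.12, and Nbr1, a receptor built like Sqstm1, at -0.089.

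Of 15 tested partners of Tbk1 and optineurin, 9 lay above 0 (median 0.0097). Ticam1, the adaptor TRIF that links Toll-like receptors to Tbk1, was the 1 gene of all lists with an unadjusted p under 0.05. It was at 4.81, 4.94 and 4.60 in HuR KO, against 4.57, 4.36 and 4.42 in HuR WT. All HuR KO arrays lay above all HuR WT arrays, by 0.33 ± 0.13 (SE) on average on the log2 scale, a fold of 1.26 (limma unadjusted p = 0.0337, adjusted p = 1). It is dim, not far above the array medians of 3.85 to 3.97 before normalization. The deubiquitinase Cyld, at 0.14, was also without overlap. So was Rab8b, a relative of the optineurin-binding Rab8a, at 0.095, but by a narrow margin. Irf3, the interferon transcription factor that Tbk1 activates, was at 0.23 ± 0.18 (SE) with overlap.

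Lists around ubiquitin had small differences too. Of 24 Vcp cofactors, 15 lay above 0 (median 0.035). Aspscr1, whose protein takes Vcp hexamers apart, was at -0.13 without overlap, while the adaptors Ubxn7 and Ubxn8 were at 0.11 each and Faf2 at 0.15. Of 7 tested ubiquilins and shuttle factors, 6 lay above 0 (median 0.022). Rad23b, a shuttle that also serves DNA repair, was at 0.10, without overlap by a narrow margin.

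Around Fig4, 10 of 17 genes of phosphatidylinositol 3,5-bisphosphate handling lay above 0 (median 0.016), with Wipi1 at 0.19 and the lipid phosphatase Mtmr4 at 0.16. Around Vapb, 11 of 19 lay above 0 (median 0.0097), with the protrudin gene Zfyve27 at 0.21 ± 0.18 (SE) and Mospd1 at -0.15. Among 21 profilin and actin genes, 15 lay above 0 (median 0.030), with Cap1, which recycles actin monomers, at 0.13, the filament elongation factors Evl and Vasp at 0.12 and 0.11, and the thymosin gene Tmsb10, whose protein binds actin monomers, at -0.088. Among 13 genes of superoxide dismutases and copper handling, 8 lay above 0 (median 0.041), with Sod3 at -0.17, the neuronal metallothionein Mt3 at 0.12 and the copper importer Slc31a1 at 0.085. None of these genes had an unadjusted p under 0.05.

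Of 15 other motor neuron disease genes of trafficking and proteostasis, 6 lay above 0 (median -0.016). Smcr8, the partner of C9orf72, was at 6.83, 6.48 and 7.02 in HuR KO, against 6.37, 6.36 and 6.76 in HuR WT. Within each number the HuR KO array was the higher, by 0.46, 0.12 and 0.26, while the groups overlapped. Its log2 fold change was 0.28 ± 0.18 (SE, limma unadjusted p = 0.156; 0.0301 with pairs). Glt8d1, a glycosyltransferase, was at 6.89, 6.91 and 6.79 in HuR KO, against 6.79, 6.50 and 6.59 in HuR WT, without overlap by a very narrow margin and with a log2 fold change of 0.24 ± 0.12 (SE, limma unadjusted p = 0.0755; 0.049 with pairs). With pairs, 4.85% of all genes had an unadjusted p under 0.05 and 0 passed after adjustment, so neither gene is called. The co-chaperone Dnajc7 and the endoplasmic reticulum protein Erlin2 were at -0.11 and -0.12, with all HuR KO arrays below all HuR WT arrays and limma unadjusted p values of 0.281 and 0.284.

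**Figure D4:**
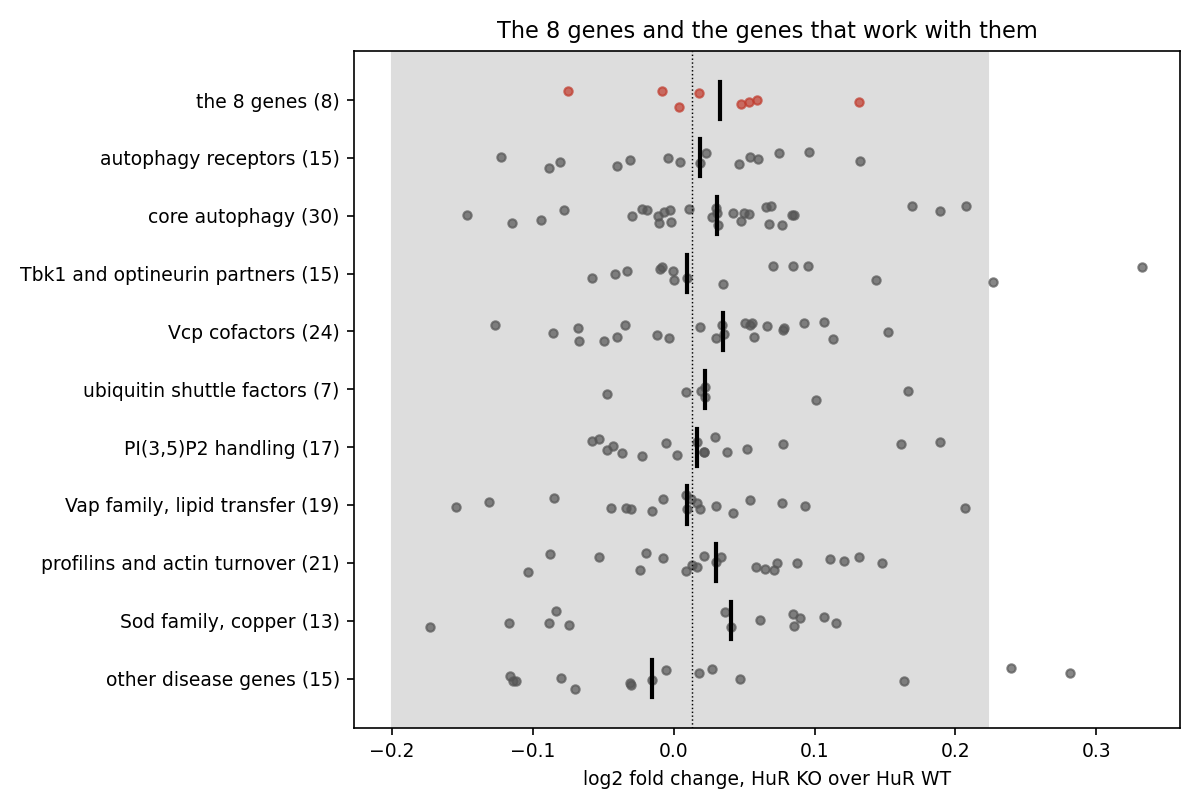
Log2 fold change of HuR KO over HuR WT for each of the 8 genes (top row) and for each tested gene of 10 partner lists, with the number of genes in parentheses and the list median as a black bar. The grey band holds all genes tested from the 5th to the 95th percentile (-0.20 to 0.22), and the dotted line is their median; Ticam1, Irf3, Glt8d1 and Smcr8 are the points beyond the band.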

How the data were processed

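The 6 whole-brain samples, 3 HuR KO and 3 HuR WT, were grouped by their titles. For each array the authors deposited linear intensity values of 41340 probesets. The submitters' processing notes name MAS5 and give no version, and the handling of background, scaling and filters was not given in the sources used here. Since no label ties a sample to 1 animal, p values cover the spread between these samples, which may be technical.

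Values were taken as log2(intensity + 1), quantile normalized since array medians differed by 0.12 on the log2 scale, and reduced to 22180 genes by their brightest probeset with 1 symbol. The 5545 genes with a mean level below the 25th percentile were left out. Of 25335 annotated probesets, 23521 had 1 symbol and 1814 several. The two-sided test was limma's (version 3.58.1, functions lmFit and eBayes, under R 4.3.3), adjusted over all genes by Benjamini-Hochberg. Folds come from log2(intensity + 1), which understates the change of dim genes. The table has 0 unused columns of samples. The fit was tested on simulated data. Plots used matplotlib 3.10.9 in Python 3.11.15.

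The members and lists were chosen with earlier results of these data known. Named were the 8 genes with their other probesets, the relatives Ubqln1, Ubqln4, Vapa, Pfn2, Sod2 and Sod3, per list the 2 to 4 genes with the smallest p, the 3 nearest profiles of the 3 genes with the widest range, and Elavl1, Xist and leading markers as checks. Of the marker lists, 5 of 6 motor and cholinergic neuron genes and all 10 neuronal genes were above the brightness limit, and 0 of the 4 erythroid genes were found.

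Deviations of same-numbered arrays from their group means correlated at 0.314, 0.367 and 0.752, all above the limit of 0.1, so numbers were taken to pair the arrays. This comes from the data and not from a label, and it is specific for number 3 alone, since HuR KO 2 correlated with HuR WT 1 at 0.401 and HuR KO 1 with HuR WT 2 at 0.373.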

Additional observations from a re-analysis of the deposited data

How the results depend on the processing

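Across 17 alternatives, 0 of the 8 genes and 0 of all genes passed the adjusted threshold in limma, and 0 of the 8 reached an unadjusted p under 0.05; the smallest was 0.0954. The median log2 fold change over the 8 genes was 0.033, which the replicate block cannot change in this balanced layout. It was 0.0536 with values as deposited and 0.0894 with each array centred on its median. Against values as deposited, centring moves the fold change of every gene by the same amount. That step is therefore not particular to the 8 genes. Leaving out 1 array at a time moved the median over the 8 between -0.0128 (without HuR WT 1) and 0.0409 (without HuR KO 2), with 0.0060 without HuR KO 3. The replicate block changed no call. Fig4 and Pfn1 kept their sign throughout, Pfn1 between 0.0567 and 0.240. Of 136 values of single genes, 14 turned sign. Part of the 136 could not turn, since the replicate block, the brightness filters and the intensity trend leave each fold change as it is. The mean over all probesets can move Vcp alone. Apart from the omission of 1 array, the values that turned belonged to Tbk1 and Sqstm1. Tbk1 turned with arrays centred on their median (0.0595) or with values as deposited (0.0237). Sqstm1 turned with array weights (-0.0225) or without both arrays numbered 3 (-0.0135). Omitting 1 array at a time gave -0.0335 to 0.180 for Sod1, -0.193 to 0.0044 for Vcp, -0.0552 to 0.0473 for Sqstm1, -0.0507 to 0.0557 for Tbk1, -0.0983 to 0.241 for Ubqln2 and -0.0151 to 0.0683 for Vapb. Vcp was at -0.199 (limma unadjusted p = 0.117) with the mean over all probesets of a gene, against -0.075 with the brightest. Apart from the common offset from centring, the cause of these shifts was not tested. The number of arrays limits the precision.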
